A study of Mus musculus with 3 samples.

Results

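The Hnf4a locus of mouse hepatoblasts held 10 of the 21041 peaks that were called for HNF4A and FOXA2 by chromatin immunoprecipitation with sequencing (ChIP-seq). They are all regions that overlap a 130-kb window on chromosome 2 from 163290000 to 163420000 (mm9), whatever their score. The window itself was chosen with earlier results of these data known. There were 5 HNF4A peaks of 11703 in that list, 5 FOXA2 peaks of 9338, and 0 of the 1263 regions called in input chromatin. The study made 3 libraries, namely HNF4A ChIP with the antibody sc-8987, FOXA2 ChIP with the antibody sc-6554, and input chromatin without immunoprecipitation. All of them came from livers of wild-type C57BL/6 embryos at embryonic day 14.5. The livers had been pooled, and cells carrying DLK1, a surface protein of hepatoblasts, had been enriched from them with magnetic beads. Pooling leaves no measure of the difference between embryos, and the purity of the enriched cells cannot be read from lists of peaks, which carry no expression values. There were no replicate libraries, so no difference below has an error from replicates and none was tested.

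HNF4A is a nuclear receptor that binds DNA as a homodimer and maintains the hepatocyte programme, and it is also required for the fetal liver to form its epithelium. FOXA2 is a forkhead factor that can engage nucleosomal DNA and acts early in liver development. The Hnf4a gene is read from a pair of alternative promoters that give proteins with different N-termini: P2, at the start of the gene, is used in the pancreas and the fetal liver, and P1, farther downstream, dominates in adult hepatocytes. An enhancer several kilobases upstream of P1 is known in hepatic cells, and HNF4A takes part in the circuit of liver factors that control its own gene.

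The gene lies on the plus strand at about 163332500 to 163398600 (mm9), with P2 at its start and P1 about 40 kb downstream, near 163372500. These gene positions are approximate, since no annotation of mm9 was used here, and distances to them carry that uncertainty. In the RefSeq gene order (GRCm38.p6) the upstream protein-coding neighbour is R3hdml and the downstream neighbour is Ttpal. RefSeq places a start site at each promoter, 40298 bp apart. The 250 bases that precede each start site are shown because P2 carried a peak of both factors and P1 carried none. They lie on the plus strand of GRCm38.p6, at chr2:163506607-163506856 for P2 and chr2:163546905-163547154 for P1, coordinates that cannot be set against those of the mm9 peaks. Capitals mark matches to the short motifs that were searched on both strands.

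Hnf4a P2: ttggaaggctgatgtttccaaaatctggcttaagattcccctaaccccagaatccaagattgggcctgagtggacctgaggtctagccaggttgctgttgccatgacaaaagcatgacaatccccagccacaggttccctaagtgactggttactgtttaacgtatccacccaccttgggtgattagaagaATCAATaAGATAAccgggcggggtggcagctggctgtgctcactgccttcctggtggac
Hnf4a P1: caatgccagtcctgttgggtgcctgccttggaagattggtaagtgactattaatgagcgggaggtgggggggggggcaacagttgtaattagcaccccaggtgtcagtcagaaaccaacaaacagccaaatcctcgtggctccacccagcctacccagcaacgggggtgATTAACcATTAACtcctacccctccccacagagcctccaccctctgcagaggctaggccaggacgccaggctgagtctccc

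The capitals in P2 are ATCAAT, a motif of the ONECUT factors, at 59 to 54 bases before the start site, and AGATAA, a motif of the GATA factors, at 52 to 47 bases before it. ATCAAT occurs in 6.72% and AGATAA in 9.99% of the 32851 promoter windows of this length in the RefSeq table, so neither match is rare. The capitals in P1 are a pair of matches to GTTAAT, the half-site of HNF1 factors, both read on the minus strand, at 81 to 76 and 74 to 69 bases before the start site. A match to GTTAAT, single or repeated, occurs in 6.43% of the windows. The share of windows with a pair of matches was not counted. None of these 4 matches overlaps another. The HNF4 motifs CAAAGTCCA and CAAAGGTCA, the forkhead motif TGTTTAC and the ONECUT motif ATCGAT had no match in these letters of either promoter, and occur in 0.384%, 0.426%, 3.17% and 0.728% of all windows. Each motif was searched as its exact letters only, so variants of it were not looked for. A match is a description of the sequence, not of a bound site. The sequence under the peaks themselves is not shown, because no genome of the mm9 build was used.

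The 10 peaks fell on 6 sites, and both factors were present at 4 of them. In the order of the gene these were the P2 start, then 3 sites in the interval between P2 and P1, called here the first, the second and the third internal sites, then the 3′ end of the gene, and last a site downstream of it. Both factors overlapped at P2, at the first and second internal sites and at the downstream site. HNF4A alone was called at the third internal site, and FOXA2 alone at the gene end. Thus 4 of 5 HNF4A peaks and 4 of 5 FOXA2 peaks of the locus overlapped the other factor by at least 1 bp, against 24.4% of the whole HNF4A list and 30.7% of the whole FOXA2 list. With 5 peaks a factor these shares rest on few regions, and neighbouring peaks are not independent.

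**Figure D1:**
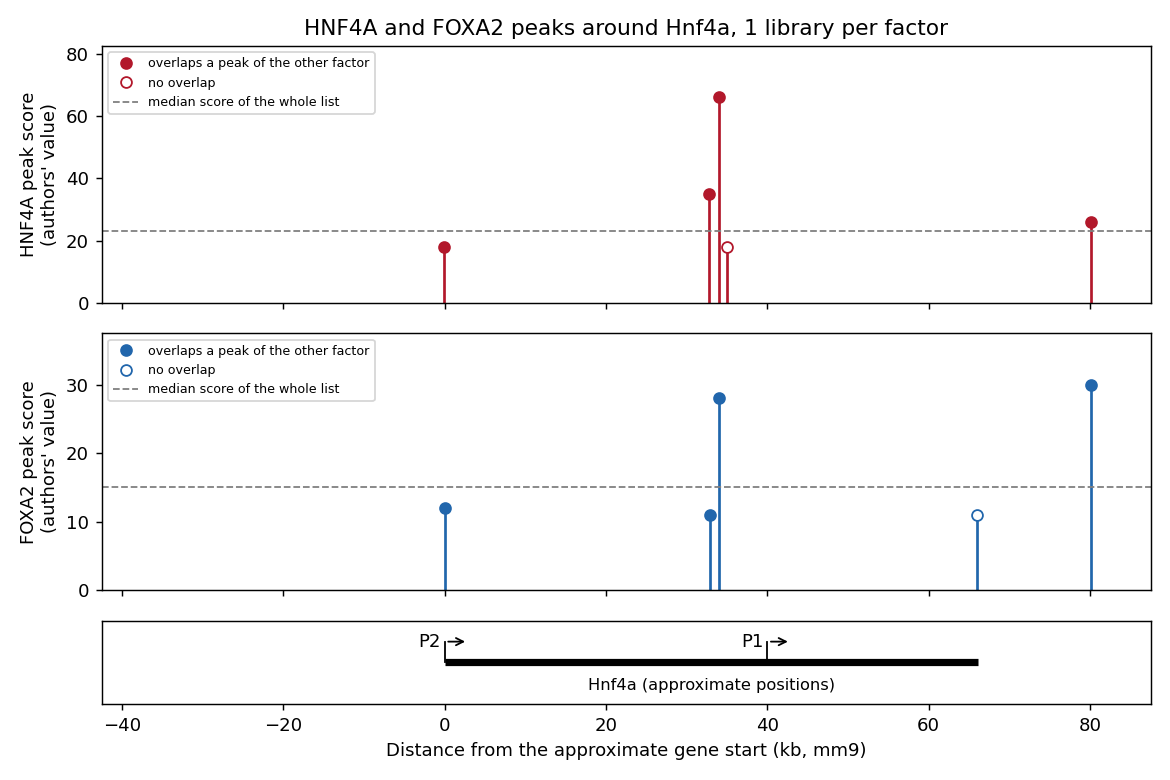
Score of each HNF4A peak (top) and FOXA2 peak (middle) against its distance from the approximate start of Hnf4a in kb, with the gene below. Filled points overlap a peak of the other factor, open points do not, and dashed lines give the median score of each whole list (23 for HNF4A and 15 for FOXA2). The highest HNF4A score, 66, stands between P2 and P1, and the highest FOXA2 score, 30, stands downstream of the gene.

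The score is the authors' own whole-number value of a peak, with no definition in the labels or the files. It was read only within a list, where a higher score gives a higher rank, and an HNF4A score cannot be set against a FOXA2 score. Many peaks tie at one score, so a rank is given as the range of places that the tied peaks hold.

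At P2 both factors had a peak of low rank that spanned the approximate gene start. The HNF4A peak lay at 163332188 to 163332710, with a width of 523 bp and a score of 18. That score holds places 8703 to 9550 of 11703, so 74.4% of the list scored higher. The FOXA2 peak lay at 163332349 to 163332697, inside the HNF4A peak over its whole 349 bp. Its score of 12 holds places 6595 to 7796 of 9338, and 70.6% of the list scored higher. The peak centres were 74 bp apart. Both scores stood close to the end of their lists, where the lowest HNF4A score is 16 and the lowest FOXA2 score is 11. Of HNF4A peaks within 10% of a score of 18, 16.5% overlapped FOXA2, against 24.4% of the list. Of FOXA2 peaks within 10% of a score of 12, 19.2% overlapped HNF4A, against 30.7% of the list.

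The second internal site carried the highest HNF4A score of the locus. It lay about 34.1 kb downstream of the gene start, and so about 5.9 kb upstream of the approximate P1. Its HNF4A peak, at 163366359 to 163366754, had a width of 396 bp and a score of 66, which holds places 368 to 390 of 11703. That is above 96.7% of the list. The FOXA2 peak at 163366314 to 163366657 had a score of 28, places 1356 to 1460 of 9338, above 84.4% of its list. The 2 peaks shared 299 bp, with centres 71 bp apart. Among all 2879 overlapping pairs of the genome the HNF4A score was above 93.7% and the FOXA2 score above 71.7%. When pairs were ordered by the lower of their standings in the HNF4A and FOXA2 lists, this pair came 250th, with 15 pairs at that value. Of HNF4A peaks within 10% of a score of 66, 39.7% overlapped FOXA2, and of FOXA2 peaks within 10% of a score of 28, 48.7% overlapped HNF4A.

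The first internal site was strong for HNF4A and at the bottom of the FOXA2 list. It lay about 32.8 kb from the gene start and about 7.2 kb upstream of P1. The HNF4A peak, at 163364933 to 163365671, had a score of 35, places 2499 to 2655, above 77.3% of the list. At 739 bp it was the widest of the locus, and wider than 94.7% of HNF4A peaks, whose median width is 430 bp. The FOXA2 peak at 163365222 to 163365576 had a score of 11, the lowest in its list, which 1542 peaks share. It lay wholly inside the HNF4A peak and covered 48.0% of it, with a centre 97 bp farther downstream. Of all pairs, 10.2% (293 of 2879) had FOXA2 at that lowest score. Of HNF4A peaks within 10% of a score of 35, 30.3% overlapped FOXA2.

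The third internal site was called for HNF4A alone. Its peak at 163367373 to 163367752 was about 4.9 kb upstream of P1 and was the called region nearest to P1 in either list. It was 380 bp wide with a score of 18, the same as at P2. The nearest FOXA2 peak, that of the second internal site, ended 715 bp away. Of HNF4A peaks within 10% of its score, 83.5% likewise had no FOXA2 overlap. No peak of either factor overlapped the approximate position of P1, and the next called region downstream was the FOXA2 peak at the gene end, about 26.0 kb on. A region missing from a list that ends at a threshold may still have been bound.

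**Figure D2:**
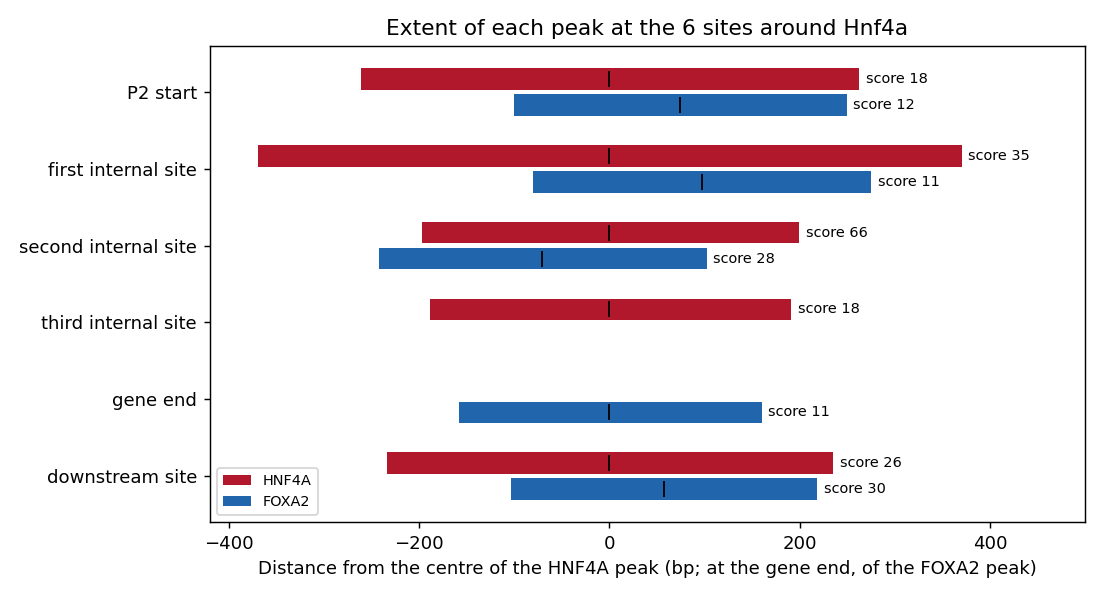
Extent of every peak at the 6 sites in bp, from top to bottom in the order of the gene, with HNF4A above FOXA2 and a tick at each centre; 0 is the centre of the HNF4A peak, or of the FOXA2 peak at the gene end. At P2, the first internal site and the downstream site the FOXA2 peak lies wholly inside the HNF4A peak and its centre is 57 to 97 bp farther downstream; at the second internal site its centre is 71 bp upstream.

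The 3 internal HNF4A peaks formed a compact group that few other regions matched. They spanned 2820 bp, with gaps of 687 and 618 bp between them, and FOXA2 peaks covered parts of the first and second. When HNF4A peaks with gaps of at most 1 kb were joined across the genome, 23 groups of 3 or more peaks were found, holding 72 peaks or 0.615% of the list. In 20 of these groups the highest score was below 66, and in 2 it was above. The gap of 1 kb and the count of 3 were chosen after the peaks of the locus were known, so this number describes the list and gives no test. A group of close peaks can also be a broad enriched region that the caller divided, which lists of peaks do not resolve.

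The downstream site ranked highest at the locus for FOXA2. It lay about 14.0 kb beyond the approximate 3′ end of the gene. The FOXA2 peak at 163412519 to 163412839 had a score of 30, places 1181 to 1266 of 9338, above 86.4% of the list. The HNF4A peak at 163412388 to 163412856 had a score of 26, places 4533 to 4866 of 11703, above 58.4%. The FOXA2 peak was 321 bp wide and lay wholly inside the HNF4A peak of 469 bp, with centres 57 bp apart. By the lower of its standings in the HNF4A and FOXA2 lists this pair came 906th of 2879, with 58 pairs at that value. In the same order the P2 pair came 2100th, with 194 pairs at that value. The pair of the first internal site came 2413th, with 467 pairs at that value. Of FOXA2 peaks within 10% of a score of 30, 48.1% overlapped HNF4A, and of HNF4A peaks within 10% of a score of 26, 24.6% overlapped FOXA2. The assignment of a peak to Hnf4a here is by position only, and these data do not show which gene such a site acts on.

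At the gene end FOXA2 had a peak without HNF4A. It lay at 163398277 to 163398594, with its centre about 165 bp before the approximate 3′ end. Its score was 11, again the lowest of the list, and it was the narrowest peak of the locus at 318 bp. The nearest HNF4A peak, the downstream one, was 13793 bp away. Of FOXA2 peaks within 10% of this score, 81.3% had no HNF4A overlap.

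**Figure D3:**
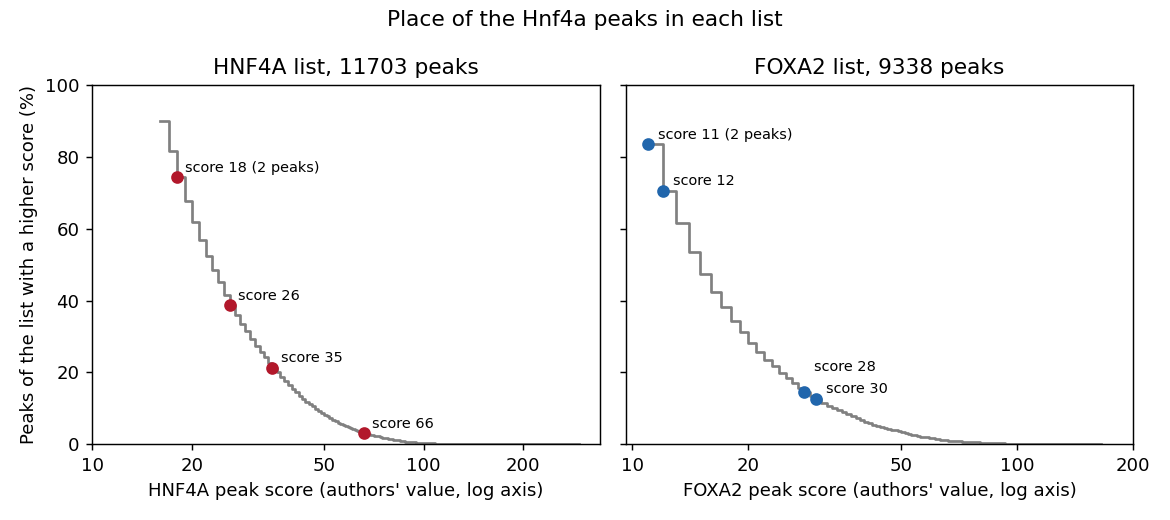
Percentage of each list with a score above a given value (log axis of score), for HNF4A on the left and FOXA2 on the right, with the Hnf4a peaks as points. HNF4A points run from a score that 3.14% of peaks exceed (66) to one that 74.4% exceed (18), and FOXA2 points from 12.6% (score 30) to the lowest score of the list, which 83.5% exceed.

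Across the locus the order of the sites differed between the factors. By HNF4A score the 4 shared sites ran from the second internal site (66) through the first (35) and the downstream site (26) to P2 (18). By FOXA2 score they ran from the downstream site (30) and the second internal site (28), which stood 2 units apart, to P2 (12) and the first internal site (11), at the end of the list. With 1 library a factor, no spread is known that would say which neighbours in these orders differ. The HNF4A scores had a median of 26, against 23 in the rest of the list, and 3 of 5 exceeded the list median. The FOXA2 scores had a median of 12, against 15 in the rest, and 2 of 5 exceeded the list median. The locus was therefore not uniformly high for either factor.

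The centres of the 4 shared pairs were 57 to 97 bp apart, against a median of 59 bp (interquartile range 27 to 106 bp) over all 2879 pairs. Each of the 4 thus fell within the usual range. FOXA2 peaks of the locus were 318 to 355 bp wide, against a median of 367 bp in the list. HNF4A peaks were 380 to 739 bp wide, against a median of 430 bp. Together the HNF4A peaks covered 2507 bp and the FOXA2 peaks 1687 bp, or 1.93% and 1.3% of the window.

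The window was densely occupied for its length. The autosomes and the X chromosome were divided into 20228 tiles of 130 kb, laid so that the Hnf4a window was itself 1 tile, and peaks were counted by their centres. The Hnf4a tile held 10 peaks, against a mean of 1.04 and a median of 0 over all tiles, and 99.3% of tiles held fewer. In every tile a site shared by both factors was counted once for each factor, as were the 4 shared sites here. Tiles with at least 5 HNF4A peaks made up 2.18%, and those with at least 5 FOXA2 peaks 0.771%. Both conditions were met by 49 tiles, or 0.242%, the Hnf4a tile included. The window was drawn around a known liver gene, with earlier results of these data known, and 62.7% of tiles held no peak of either factor. The percentile therefore describes the place of the locus and is no test.

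**Figure D4:**
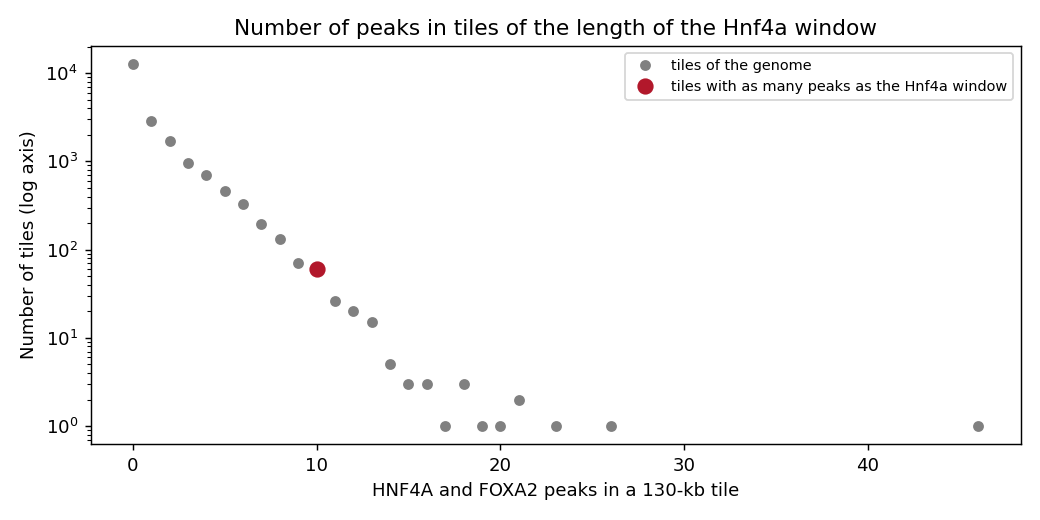
Number of 130-kb tiles (log axis) that hold a given number of HNF4A and FOXA2 peaks together. The red point marks the 60 tiles with 10 peaks, among them the Hnf4a window; 83 tiles hold more.

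The edges of the window affected 1 peak. A FOXA2 peak of score 12 at 163420962 to 163421278 began 962 bp past the downstream edge and had no HNF4A overlap; it was 8122 bp from the downstream site and is not counted. The last peak inside that edge was the HNF4A peak of the downstream site, with a score of 26. On the upstream side the nearest HNF4A peak, of score 30, was 102 kb from the peak at P2, and the nearest FOXA2 peak, of score 15, was 159 kb from it. On the downstream side the next HNF4A peak, of score 19, was 71.0 kb beyond the downstream site. Over all tiles of 130 kb the mean was 0.578 HNF4A peaks and 72.0% held none. These tile counts describe positions of the genome. Gaps from each HNF4A peak to the next were not computed over the list, so whether gaps of this length are unusual cannot be said.

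Input chromatin showed nothing called at the locus. The nearest input region was 6.72 Mb from the window. Outside mitochondrial DNA, 0 HNF4A peaks and 0 FOXA2 peaks of the whole genome overlapped an input region. The absence of overlap at a single locus therefore carries little information.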

How the data were processed

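Each library has 1 headerless list of regions as deposited by the authors, with chromosome, start, end and a whole-number score. Per the submitters' processing notes, coordinates refer to mm9. Aligner, peak caller, threshold and any treatment of input: not given in the sources used here. Scores were used only to rank peaks within a list. Depth is unknown. Both ends of a region were counted as part of it. Regions that overlap the window were described one by one, and overlap meant at least 1 bp. With 1 library per group no test was run. The window, the sites and the lists were chosen with earlier results of these data known. All regions in the window are named. Other genes of the liver factor network and sequences under peaks were not analysed here, for want of an mm9 annotation and genome. Promoter sequences are from RefSeq (GRCm38.p6), which lists 2 start sites for Hnf4a. Overlap and tile counting were tested on simulated data. Computations used Python 3.11.15 with pandas 2.3.3, numpy 2.4.6 and scipy 1.17.1, and plots matplotlib 3.10.9.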

Additional observations from a re-analysis of the deposited data

How the results depend on the processing

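With peaks at or above the median score of their list, the locus held 3 HNF4A peaks and 2 FOXA2 peaks, and 2 of each were shared, at the second internal and downstream sites; P2, the third internal site and the gene end then had no peak. Requiring overlap over 50% of the shorter peak, requiring centres less than 100 bp apart, or allowing a gap of 200 bp each left 4 shared peaks of each factor. Within the gene span there were 4 peaks of each, and in a window widened by 50 kb on each side 5 HNF4A and 6 FOXA2 peaks. The widened window still held 0 input regions, an alternative chosen after seeing the data. The share of tiles with fewer peaks was 99.4% without peaks within 10 kb of input, 99.3% with the tiles shifted on other chromosomes, 98.1% with peaks at or above the median score and 98.1% over tiles with at least 1 peak. No paired analysis was possible because each group has 1 library. Depth is unknown, so how many weak sites fell below each threshold cannot be said.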
